A study of Mus musculus with 288 samples.

Results

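The 6 genes described here belong to the Notch pathway and were followed through single cells of the mouse lung: the ligand gene Jag1, the receptor genes Notch1, Notch2 and Notch3, and the target genes Hes1 and Nrarp. They were chosen by name, as 6 of the 24781 genes in the deposited count table. The cells came from C57BL/6 mice aged 4 months that carried Scgb1a1-CreER and Rosa26-mTmG. Scgb1a1-CreER is a drug-inducible Cre driven by the promoter of the club cell secretoglobin Scgb1a1, and Rosa26-mTmG changes the fluorescent protein of a cell after recombination. Every cell shared this genotype, age and gate. The sort kept Epcam+ epithelial cells without CD45 (leukocytes) or CD31 (endothelium), with low CD24 and the Scgb1a1 lineage label. The Cre marks any cell in which that promoter was active at the time of induction, so the lineage is not a single cell type.

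The samples were 286 wells with 1 sorted cell each and 2 negative control wells. The labels name no animal. All wells were therefore treated as 1 sample, no test was made, and every interval is a 95% interval that covers counting error only. The controls held 41 and 234 counts, and none of these counts fell on any of the 6 genes. Wells with a total above 10 times the higher control, which is 2340 counts, were kept. This left 227 wells with 2384 to 15088 counts (median 5356) and removed 59.

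Kept wells were divided by 2 secretory genes that are not members. Sftpc, the surfactant protein gene that marks alveolar type 2 cells, made up at least 1% of the total in 63 wells, here called Sftpc wells (27.8% of kept wells, interval 22.0 to 34.1%). Scgb3a1, a secretoglobin of airway secretory cells, made up at least 1% in 74 wells, here called Scgb3a1 wells (32.6%, 26.5 to 39.1%). The remaining 90 wells are called other wells (39.6%, 33.2 to 46.3%). No well reached 1% of both genes. The nearest wells on either side of the Sftpc limit held 2.07% and 0.734%, and those on either side of the Scgb3a1 limit held 1.01% and 0.876%. The classes are ranges of 2 genes and not cell types.

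The classes differed in depth and in their place in the table. Sftpc wells had a median total of 3529 counts, Scgb3a1 wells 6940.5 and other wells 5406. The summed totals were 240677 counts in Sftpc wells, 513183 in Scgb3a1 wells and 505258 in other wells. The table is made of 3 sets of 96 columns, and the labels do not say what a set is. Of the Sftpc wells, 6, 17 and 40 lay in the first, the second and the third set. Of the Scgb3a1 wells, 38, 31 and 5 did, and of the other wells 38, 33 and 19. Values within sets are therefore given beside the pooled ones.

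Marker genes showed which cells the classes could hold. The 9 alveolar type 2 markers, a list that includes the class gene Sftpc, summed to 207224 CPM in Sftpc wells. CPM are counts scaled to the total of the same wells in the usual way. Of that sum, 152241 CPM came from Sftpc itself, which is high there by the class rule. The list summed to 5945 CPM in Scgb3a1 wells and 9932 CPM in other wells. The 8 club cell markers, a list that includes the class gene Scgb3a1, summed to 59889 CPM in Sftpc wells, 357110 CPM in Scgb3a1 wells and 383279 CPM in other wells. The 5 goblet cell markers summed to 20.8 CPM in Sftpc wells, 5218 CPM in Scgb3a1 wells and 131 CPM in other wells. Markers of endothelial, mesenchymal and immune cells stayed at or below 29.7 CPM in every class, and the defining markers Pecam1 and Ptprc were at 0 in all 3 classes. The 7 alveolar type 1 markers summed to 1458 CPM in Sftpc wells, 524 CPM in Scgb3a1 wells and 548 CPM in other wells. The 5 basal cell markers summed to 4.15 CPM in Sftpc wells, 210 CPM in Scgb3a1 wells, where 11 wells held a count, and 15.8 CPM in other wells. Of these markers, Krt5, Krt14 and Ngfr were at 0 in all 3 classes. The basal counts thus came from Krt15 and, in Scgb3a1 wells, also from Trp63. The part of wells with alveolar type 1 or basal markers in the member values was not tested. The 7 ciliated cell markers summed to 108 CPM in Sftpc wells, 109 in Scgb3a1 wells and 410 in other wells.

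Notch receptors sit in the cell membrane and are switched on by ligands of the Jagged and Delta families on a neighbouring cell. Ligand binding leads to cleavage by ADAM proteases and then by gamma-secretase, and the freed intracellular domain joins the DNA-binding protein RBPJ to activate target genes. Hes1 is a repressor and a classical target, while Nrarp is a target whose protein binds the active complex and dampens it. In the airway epithelium, Notch signalling is known for keeping secretory cells from taking the ciliated fate.

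The members lie at 6 places on 4 chromosomes, given here in GRCm38, the assembly behind mm10, from the GENCODE M21 annotation. Nrarp is at chr2:25180758-25183339 on the plus strand and Notch1 at chr2:26457903-26516663 on the minus strand, 1.27 Mb apart. Jag1 is on the same chromosome at chr2:137081456-137116644, minus strand. Notch2 is at chr3:98013527-98150361, plus strand, Hes1 at chr16:30064384-30067796, plus strand, and Notch3 at chr17:32120820-32166852, minus strand. All are protein-coding. The annotation places other genes over Notch1, Notch2, Notch3 and Nrarp. Of these, 0610009E02Rik and Mir6996, both over Notch1, are in the count table and had 0 counts in the kept wells. Gm13568 over Notch1 and all genes placed over Notch2, Notch3 and Nrarp are not in the count table, so their counts are not known.

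Nrarp, Notch1 and Notch2 were the members at least 2-fold lower in Sftpc wells than in other wells. Their promoter windows are shown for that reason, from 250 bases before to 50 bases after the RefSeq start (GRCm38.p6), 5′ to 3′ on the strand of the gene. Capitals mark matches to 2 motifs bound by HES and HEY repressors, the N box (CACNAG) and the class C E box (CACGNG), searched on both strands. The RBPJ core (TGGGAA, both strands) was searched too. The Nrarp window is chr2:25180508-25180807 (plus), the Notch1 window chr2:26503773-26504072 (minus) and the Notch2 window chr3:98013288-98013587 (plus). The Notch1 start used by RefSeq lies inside the longer GENCODE gene.
Nrarp: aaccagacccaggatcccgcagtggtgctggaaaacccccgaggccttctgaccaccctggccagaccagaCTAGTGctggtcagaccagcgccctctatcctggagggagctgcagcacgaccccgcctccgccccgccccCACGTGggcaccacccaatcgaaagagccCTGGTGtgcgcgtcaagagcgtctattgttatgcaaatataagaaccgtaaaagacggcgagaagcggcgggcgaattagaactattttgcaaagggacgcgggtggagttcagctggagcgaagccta
Notch1: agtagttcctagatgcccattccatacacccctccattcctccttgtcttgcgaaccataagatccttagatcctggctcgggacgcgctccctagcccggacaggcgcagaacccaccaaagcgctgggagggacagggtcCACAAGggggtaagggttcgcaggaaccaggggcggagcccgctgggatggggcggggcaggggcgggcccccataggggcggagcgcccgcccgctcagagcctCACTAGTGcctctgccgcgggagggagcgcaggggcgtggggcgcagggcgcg
Notch2: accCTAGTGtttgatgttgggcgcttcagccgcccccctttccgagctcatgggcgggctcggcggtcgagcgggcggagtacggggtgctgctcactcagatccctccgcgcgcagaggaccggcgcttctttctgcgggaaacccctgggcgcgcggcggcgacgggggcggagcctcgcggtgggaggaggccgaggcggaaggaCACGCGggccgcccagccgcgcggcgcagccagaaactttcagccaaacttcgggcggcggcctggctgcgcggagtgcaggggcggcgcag

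Of the 6 members, 5 matched the RefSeq promoter table, Hes1 being the member without an entry. None of the 5 windows held the letters of the RBPJ core, which 25.6% of all 32851 promoter windows of the same length hold. The N box was present in the windows of Nrarp, Notch1, Notch2 and Notch3, and in 42.5% of all windows. In Notch1, 2 of the 3 N box matches overlap at the start. The class C E box was present in the windows of Nrarp, Notch2, Notch3 and Jag1, and in 27.5% of all windows. In Notch3, 1 E box match covers the same letters as an N box match. Matches are letters in a window and not shown to be bound.

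**Figure D1:**
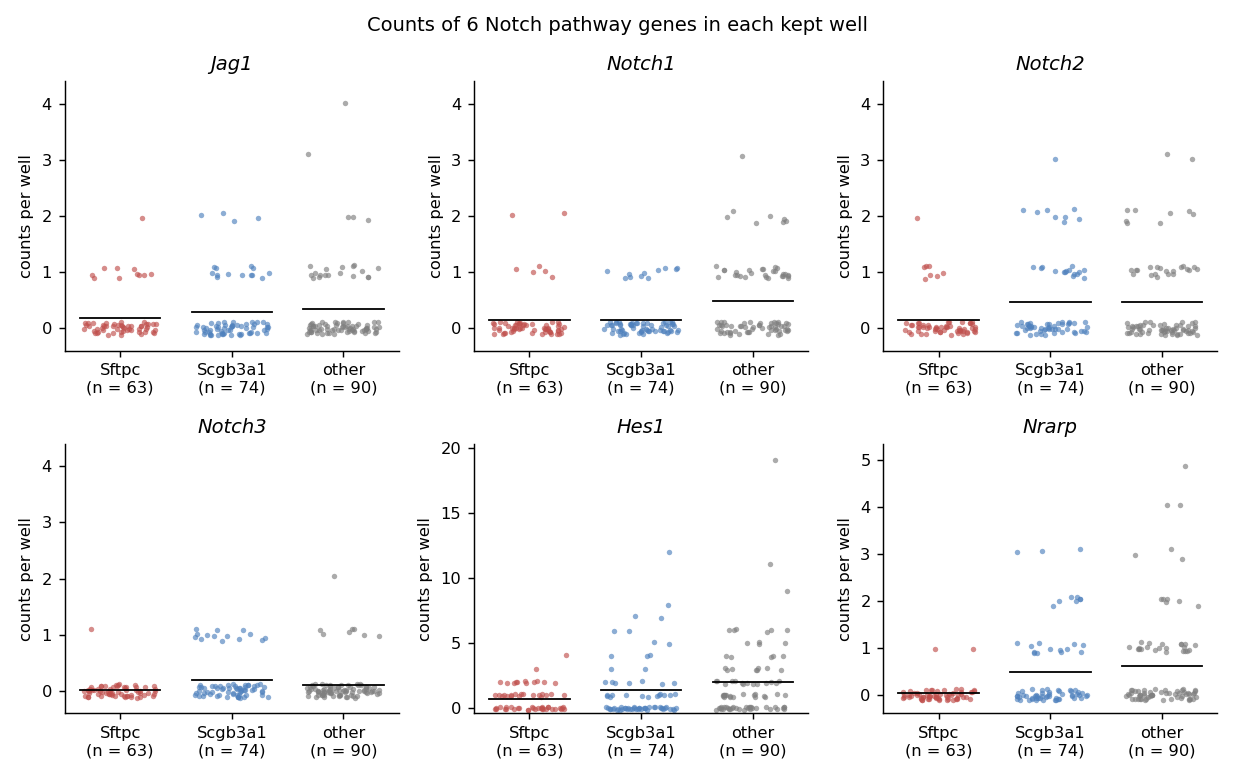
Each point is 1 of the 227 kept wells, with the counts of the named gene on the y axis (points are shifted slightly for visibility) and the class on the x axis. Black lines are means. Nrarp is at 0 in all but 2 of the 63 Sftpc wells, and Hes1 reaches 4 counts in Sftpc wells, 12 in Scgb3a1 wells and 19 in other wells.

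**Figure D2:**
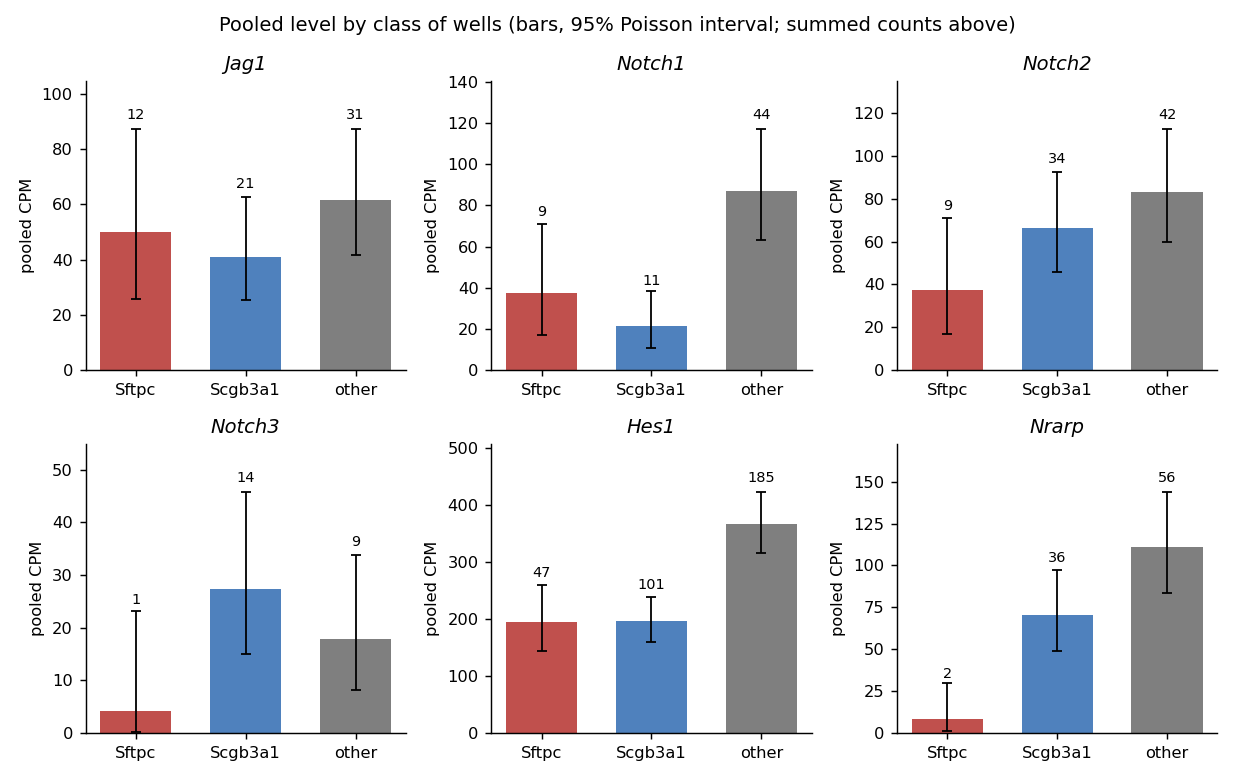
Bars give the pooled CPM of each gene in Sftpc, Scgb3a1 and other wells, lines the exact 95% Poisson interval, and the numbers the summed counts. The Notch1 interval of Scgb3a1 wells (10.7 to 38.4 CPM) lies below that of other wells (63.3 to 117 CPM), and the 3 Jag1 intervals overlap.

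The ligand gene Jag1, which encodes a membrane protein that activates Notch on a neighbouring cell, did not differ in pooled level between classes beyond its counting error. Wells held 0 to 2 counts (median 0) among Sftpc wells, 0 to 2 (median 0) among Scgb3a1 wells and 0 to 4 (median 0) among other wells. Sftpc wells held 12 counts, or 49.9 CPM (interval 25.8 to 87.1), Scgb3a1 wells 21, or 40.9 CPM (25.3 to 62.6), and other wells 31, or 61.4 CPM (41.7 to 87.1). All 3 intervals overlap. The log2 ratio of pooled CPM was -0.30 (-1.40 to 0.70) for Sftpc over other wells, -0.58 (-1.46 to 0.26) for Scgb3a1 over other wells, and 0.29 (-0.87 to 1.37) for Sftpc over Scgb3a1 wells. These counts leave room for a difference of more than 2-fold between Sftpc and other wells in the downward direction. With the level of Scgb3a1 wells matched within the same sets of columns, 4.38 Jag1 counts would be expected in Sftpc wells against the 12 seen, and the 5 Scgb3a1 wells of the third set held no Jag1 count. The matched log2 ratio was 1.45, above the pooled interval of Sftpc over Scgb3a1 wells. With totals above 20 times the higher control, which left 10 Sftpc wells, the ratio was -1.29, below that interval.

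Notch1, one of the 4 mammalian Notch receptors, was highest in other wells. It had 0 to 2 counts in Sftpc wells, 0 or 1 in Scgb3a1 wells and 0 to 3 in other wells, with a median of 0 in each class. At least 1 count was found in 11.1% of Sftpc wells (7 of 63), 14.9% of Scgb3a1 wells (11 of 74) and 38.9% of other wells (35 of 90). Sftpc wells held 9 counts, or 37.4 CPM (17.1 to 71.0), Scgb3a1 wells 11, or 21.4 CPM (10.7 to 38.4), and other wells 44, or 87.1 CPM (63.3 to 117). The interval of the Scgb3a1 wells lies below that of the other wells. The log2 ratio was -2.02 (-3.12 to -1.05) for Scgb3a1 over other wells and -1.22 (-2.44 to -0.17) for Sftpc over other wells. For Sftpc over Scgb3a1 wells it was 0.80 (-0.65 to 2.21). Within the first and second sets of columns, the ratio of Scgb3a1 over other wells was 0.355 (0.134 to 0.849) and 0.0977 (0.0110 to 0.408). In the third set, 1 Notch1 count in Scgb3a1 wells and 7 in other wells were too few to measure. Between Sftpc and other wells, Notch1 was not lower by 2-fold in the second set, where the ratio was 0.907 (0.263 to 2.53), with 5 counts in Sftpc wells and 18 in other wells. Without the third set, the log2 ratio of Sftpc over other wells was -0.57, below 2-fold.

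Notch2, a second receptor of the same pathway, followed another order. It had 0 to 2 counts in Sftpc wells, 0 to 3 in Scgb3a1 wells and 0 to 3 in other wells. At least 1 count was found in 12.7% of Sftpc wells, 32.4% of Scgb3a1 wells and 33.3% of other wells. Sftpc wells held 9 counts, or 37.4 CPM (17.1 to 71.0), Scgb3a1 wells 34, or 66.3 CPM (45.9 to 92.6), and other wells 42, or 83.1 CPM (59.9 to 112). The log2 ratio was -1.15 (-2.38 to -0.09) for Sftpc over other wells, -0.33 (-1.02 to 0.36) for Scgb3a1 over other wells and -0.83 (-2.07 to 0.26) for Sftpc over Scgb3a1 wells. Scgb3a1 and other wells thus differed by less than their counting error in the full counts. In wells thinned to 3151 counts, the ratio of Scgb3a1 over other wells was 0.51, above that interval. There, 24.3% of Scgb3a1 wells (15.1 to 35.7%) and 19.8% of other wells (12.0 to 29.8%) held at least 1 count. Within each of the 3 sets, Sftpc wells had a lower pooled Notch2 level than other wells, but no set held 20 counts in both classes together. The Notch2 call is at its limit, since 9 of 15 alternatives kept it past 2-fold, and wells thinned to 3151 counts gave -0.88.

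Notch3, the receptor best known from smooth muscle of blood vessels, had the fewest counts of the members, 24 in all kept wells. It had 1 count in Sftpc wells, 14 in Scgb3a1 wells and 9 in other wells, and 1 well held more than 1 count. The level was 4.15 CPM (0.105 to 23.1) in Sftpc wells, 27.3 CPM (14.9 to 45.8) in Scgb3a1 wells and 17.8 CPM (8.15 to 33.8) in other wells. Scgb3a1 over other wells gave a log2 ratio of 0.61 (-0.70 to 2.00), an interval that includes equal levels. Both ratios of Sftpc wells rest on fewer than 20 counts and were not measured by the rule used here. The mesenchymal markers, which would include cells of vessel walls, summed to 8.31 CPM in Sftpc wells, 5.85 CPM in Scgb3a1 wells and 1.98 CPM in other wells.

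Taken as a set, receptor counts were found in 25.4% of Sftpc wells (16 of 63, interval 15.3 to 37.9%), 50.0% of Scgb3a1 wells (37 of 74, 38.1 to 61.9%) and 62.2% of other wells (56 of 90, 51.4 to 72.2%). These shares depend on depth as well as on level. When each well was thinned to 3151 counts, they were 22.7% of 44 Sftpc wells, 32.4% of 74 Scgb3a1 wells and 47.7% of 86 other wells, and the order was the same. The thinning left out 19 Sftpc wells and 4 other wells that were shallower. The thinned intervals of Sftpc wells, 11.5 to 37.8%, and of other wells, 36.8 to 58.7%, overlapped slightly.

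The mix of receptor counts differed between Scgb3a1 wells and other wells. Notch1 made up 47.4% of the receptor counts in Sftpc wells (9 of 19, interval 24.4 to 71.1%), 18.6% in Scgb3a1 wells (11 of 59, 9.69 to 30.9%) and 46.3% in other wells (44 of 95, 36.0 to 56.8%). A share of counts within a class does not compare the levels of the receptors, because counts were not set against transcript length, but its change between classes does not depend on length. The ratio of Notch1 to Notch2 counts in Scgb3a1 wells was 0.312 times that in other wells (interval 0.125 to 0.729). The same odds ratio was 0.455, 0.116 and 0.492 in the 3 sets of columns. All 3 values are below 1, and the interval excludes 1 in the second set. For Sftpc over other wells the odds ratio was 0.955 (0.303 to 3.01).

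**Figure D3:**
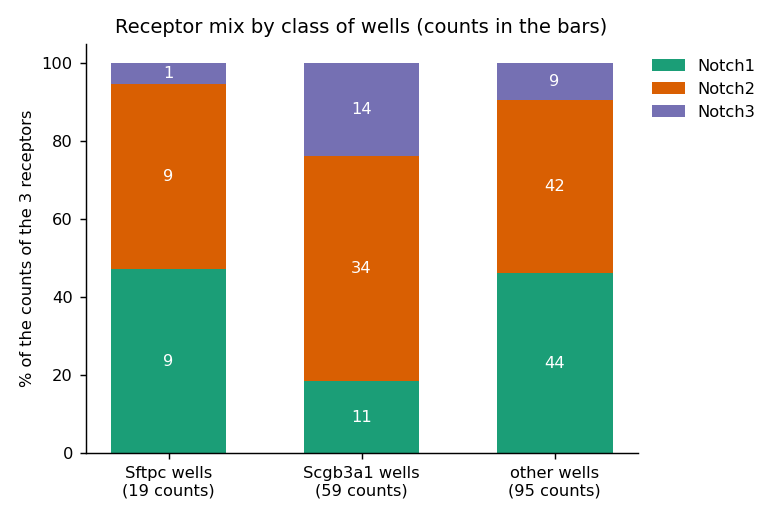
Each bar divides the counts of Notch1, Notch2 and Notch3 summed over a class of wells (y axis, percent of the receptor counts), with the counts printed in the bars. Notch1 fills 18.6% of the bar of Scgb3a1 wells, against 46.3% in other wells, and the bar of Sftpc wells rests on 19 counts.

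Hes1, which encodes a basic helix-loop-helix repressor, was the most counted member, with 333 counts in kept wells. Wells held 0 to 4 counts (median 0) among Sftpc wells, 0 to 12 (median 0) among Scgb3a1 wells and 0 to 19 (median 1) among other wells. Sftpc wells held 47 counts, or 195 CPM (143 to 260), Scgb3a1 wells 101, or 197 CPM (160 to 239), and other wells 185, or 366 CPM (315 to 423). Hes1 was thus lower in Sftpc wells and in Scgb3a1 wells than in other wells, and neither interval overlaps that of other wells. The log2 ratio was -0.91 (-1.40 to -0.44) for Sftpc over other wells and -0.90 (-1.26 to -0.54) for Scgb3a1 over other wells. Neither reached 2-fold. Between Sftpc and Scgb3a1 wells the log2 ratio was -0.01 (-0.54 to 0.50), an interval that stays within 2-fold on both sides.

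Hes1 also differed in how unevenly it was spread. In wells thinned to 3151 counts, the variance over the mean was 0.806 in Sftpc wells, 1.93 in Scgb3a1 wells and 2.91 in other wells, where a value of 1 is what counting alone gives. The Hes1 intervals that involve Scgb3a1 or other wells cover counting error only and are too narrow for this spread between wells. The mean thinned count was 0.545 in Sftpc wells and 0.568 in Scgb3a1 wells, and 45.5% of Sftpc wells and 31.1% of Scgb3a1 wells held at least 1. At nearly the same mean, the Hes1 counts of Sftpc wells were spread over more wells, though the intervals of these shares overlap (30.4 to 61.2% of Sftpc wells and 20.8 to 42.9% of Scgb3a1 wells). The highest Sftpc well held 4 counts, against 12 in the highest Scgb3a1 well and 19 in the highest other well.

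Part of the high Hes1 counts lay in wells with ciliated cell markers. Among the other wells, 7 held at least 5 counts of the 7 ciliated markers, as did 1 Scgb3a1 well and no Sftpc well. All 7 held Hes1, with 19, 5, 3, 3, 3, 3 and 1 counts, and the pooled level was 1001 CPM (705 to 1380). In the 83 other wells with fewer than 5 such counts, 51 held Hes1, with 0 to 11 counts (median 1) and 316 CPM (267 to 371). The ratio was 3.17 (2.15 to 4.57), and 1.81 (1.04 to 2.96) without the well of 19 counts. Of the 7 wells, 5 lay in the third set of columns. Nrarp had 1 count in the 7 wells, 27.0 CPM (0.685 to 151), against 117 CPM (88.5 to 153) in the 83. Jag1 had 6 counts in the 7 wells, 4 of them in 1 well. Without all wells of at least 5 ciliated-marker counts, the log2 ratio of Hes1 was -0.69 for Sftpc over other wells and -0.77 for Scgb3a1 over other wells.

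Nrarp, the feedback inhibitor of the active Notch complex, differed most. It was found in 2 of 63 Sftpc wells, with 1 count each, in 23 of 74 Scgb3a1 wells, with up to 3 counts, and in 34 of 90 other wells, with up to 5 counts. The shares were 3.17% of Sftpc wells (0.387 to 11.0%), 31.1% of Scgb3a1 wells (20.8 to 42.9%) and 37.8% of other wells (27.8 to 48.6%). At 3151 counts per well they were 2.27% of Sftpc wells, 18.9% of Scgb3a1 wells and 24.4% of other wells. The pooled levels were 8.31 CPM (1.01 to 30.0) in Sftpc wells, 70.2 CPM (49.1 to 97.1) in Scgb3a1 wells and 111 CPM (83.7 to 144) in other wells. The interval of Sftpc wells lies below both others. The log2 ratio was -3.74 (-6.82 to -1.82) for Sftpc over other wells and -3.08 (-6.18 to -1.12) for Sftpc over Scgb3a1 wells. For Scgb3a1 over other wells it was -0.66 (-1.31 to -0.03). The 2 Sftpc wells with an Nrarp count were deep, with totals of 8806 and 7395. With totals above 20 times the higher control, which left 10 Sftpc wells, the log2 ratio was smaller in size. It was -1.78 for Sftpc over other wells and -1.10 for Sftpc over Scgb3a1 wells, each just above its interval. The part of depth in this was not tested.

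The sets of columns differed for Nrarp. Sftpc wells held 1, 0 and 1 Nrarp counts in the first, the second and the third set, and the 0, read as allowing up to 3 counts, allows up to 44.4 CPM. Other wells held 17, 36 and 3, at 85.1, 163 and 35.3 CPM, so their level was lowest in the third set, where 40 of the 63 Sftpc wells lie. With the levels of other wells matched set by set, 18.8 Nrarp counts would be expected in Sftpc wells, against the 2 seen, a ratio of 0.106. With the levels of Scgb3a1 wells matched in the same way, 22.6 would be expected. That number is uncertain, because the level of Scgb3a1 wells in the third set rests on 3 Nrarp counts in 5 wells. No interval was made for either expected count. In the third set alone, 1 count in Sftpc wells and 3 in other wells were too few to measure a difference. Between Scgb3a1 and other wells, the Nrarp ratio was 0.992 (0.493 to 2.02) in the first set and 0.318 (0.155 to 0.613) in the second. In the third set, 3 counts each gave 117 CPM in the 5 Scgb3a1 wells and 35.3 CPM in the 19 other wells, a ratio of 3.31 (0.444 to 24.7). The lower pooled level in Scgb3a1 wells was thus seen in the second set and in neither of the others.

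The pooled level of Hes1 was lower in Sftpc than in other wells in every set, as was that of Nrarp. The Hes1 ratio was 0.489 (0.174 to 1.12), 0.653 (0.330 to 1.20) and 0.363 (0.219 to 0.592) in the first, the second and the third set. Of these intervals, that of the third set excludes 1. Sftpc wells had 179, 193 and 201 CPM in the 3 sets, while other wells had 365, 295 and 552 CPM. For Scgb3a1 over other wells the Hes1 ratio was 0.531 (0.359 to 0.779), 0.704 (0.479 to 1.03) and 0.212 (0.0421 to 0.657). The value of the third set rests on 5 Scgb3a1 wells with 3 Hes1 counts, and 5 of its 19 other wells held at least 5 ciliated-marker counts.

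**Figure D4:**
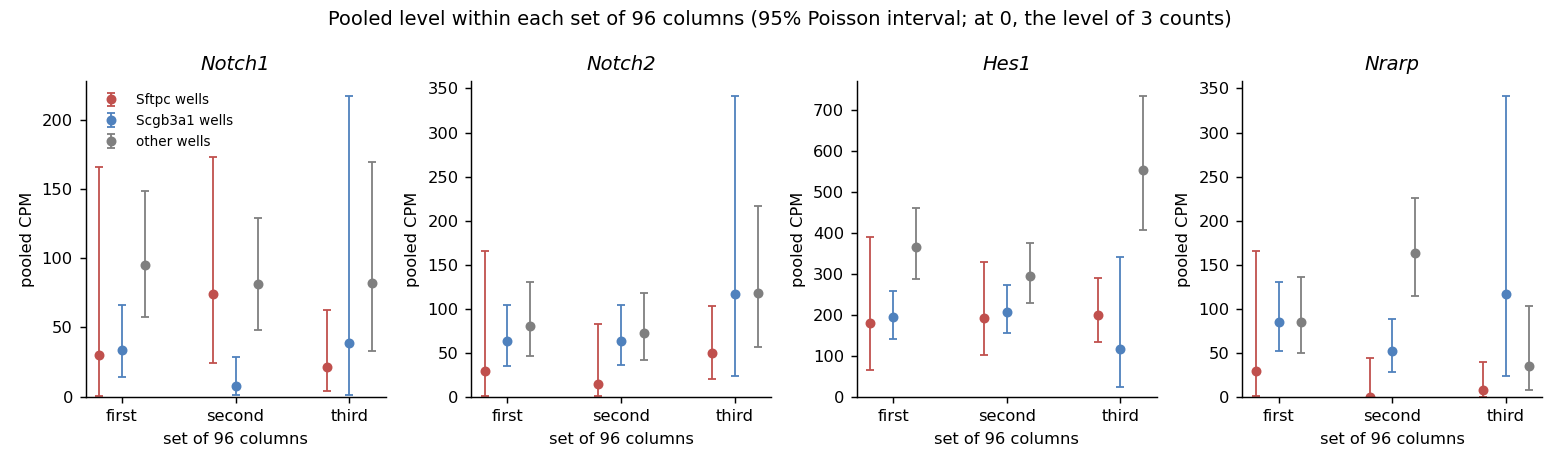
Pooled CPM (y axis) of Notch1, Notch2, Hes1 and Nrarp is shown by set of 96 columns (x axis) for Sftpc, Scgb3a1 and other wells, with 95% Poisson intervals, or for a count of 0 the level of 3 counts. Nrarp of other wells moves between 163 CPM in the second set and 35.3 CPM in the third, while Hes1 of Sftpc wells stays between 179 and 201 CPM.

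The pooled ratio of the 2 target genes differed between Sftpc wells and both other classes. The ratio of Nrarp to Hes1 counts in Sftpc wells was 0.141 times that in other wells (0.0161 to 0.570) and 0.120 times that in Scgb3a1 wells (0.0135 to 0.502). Within the sets, the odds ratio of Sftpc over other wells was 0.718 (0.0147 to 6.55) in the first set and 0.563 (0.0103 to 7.41) in the third. In the second set, where Sftpc wells held 0 Nrarp and 13 Hes1 counts, the interval ended at 0.640. Of the 3 set intervals, that of the second set excludes 1. For Scgb3a1 over other wells the pooled odds ratio was 1.18 (0.702 to 1.96), but the sets went opposite ways. It was 1.86 (0.829 to 4.22) in the first set, 0.453 (0.199 to 0.984) in the second and 14.1 (1.34 to 167) in the third, where Scgb3a1 wells held 3 counts of each gene. Relative to Notch2, Nrarp was also lower in Sftpc than in other wells, with a pooled odds ratio of 0.169 (0.0169 to 0.878). No set shows this by itself, with 0.943 (0.0113 to 78.4) in the first set, 0 against an upper limit of 18.4 in the second and 0.492 (0.00795 to 7.73) in the third. Hes1 relative to Notch2 was not distinguishable, at 1.18 (0.521 to 2.97).

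The members were then read against all genes. Past 2-fold means a pooled CPM at least 2-fold higher or lower, for genes with 20 or more counts over the 2 classes (measured genes). For Sftpc over other wells, 3 of 5 measured members were lower (Notch1, Notch2 and Nrarp) and 0 were higher, while 9.68% of the 3854 measured genes were lower and 17.4% higher. The median log2 ratio was -1.15 over the 5 members and 0.18 over all measured genes. For Scgb3a1 over other wells, 1 of 6 members was lower (Notch1) and 0 were higher, against 9.24% lower and 8.13% higher of 4536 genes. The median was -0.62 over the 6 members and -0.02 over all measured genes. For Sftpc over Scgb3a1 wells, 1 of 5 members was lower (Nrarp) and 0 were higher, against 13.2% lower and 19.7% higher of 3834 genes, with a median of -0.01 over the members and 0.20 over all measured genes. The share of 1 in 5 or 6 members is near the background in both comparisons with 1 call. These members were chosen with earlier results known, so no test was made on the list.

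The scaling moved all genes together. The median of all measured genes for Sftpc over other wells was 0.18 with total counts, -0.05 with totals that leave out 5 abundant genes (Rn45s, Scgb1a1, Scgb3a1, Scgb3a2 and Sftpc) and -0.14 with TMM factors. For Sftpc over Scgb3a1 wells it was 0.20, -0.02 and -0.18. Relative to the median of measured genes, the log2 ratio of Sftpc over other wells was -3.91 for Nrarp, -1.40 for Notch1, -1.33 for Notch2, -1.08 for Hes1 and -0.48 for Jag1. Hes1 was past 2-fold lower in Sftpc wells under TMM factors (-1.23) and without the 5 abundant genes (-1.13).

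**Figure D5:**
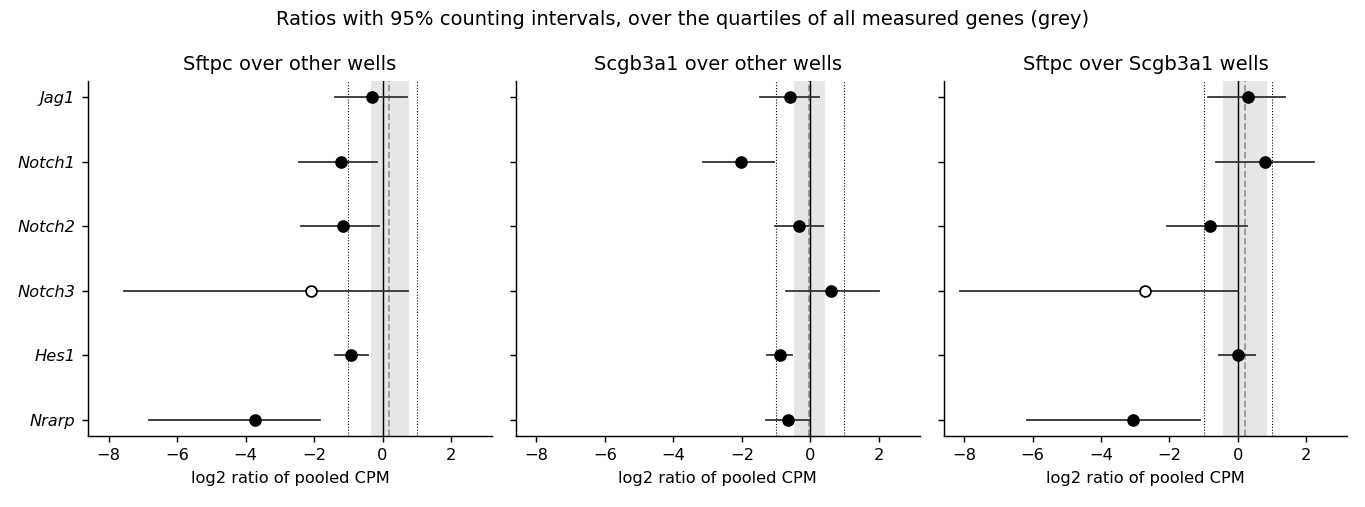
Points are log2 ratios of pooled CPM (x axis) for the 6 genes in 3 pairs of classes, with 95% counting intervals, open points resting on fewer than 20 counts. The grey band spans the quartiles of all measured genes, the dashed line their median and dotted lines mark 2-fold. Nrarp lies at -3.74 for Sftpc over other wells and at -3.08 for Sftpc over Scgb3a1 wells.

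Another 45 genes of the pathway gave the context. In all kept wells, 10 of them had no count, among them the other classical ligands Dll1, Dll3, Dll4 and Jag2, the targets Hes5 and Hes7 and the fringe glycosyltransferase Lfng. A 0 in 227 wells, read as allowing up to 3 wells, allows up to 1.32% of wells with a count. A further 21 genes had fewer than 20 counts, and 14 had 20 or more. Hey1, a target related to Hes1, had 0 counts in Sftpc wells, 12 in Scgb3a1 wells and 2 in other wells, and was named after its values were seen.

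Of the pathway genes measured for Sftpc over other wells, 2 of 10 were higher and 0 lower, where 17.4% of all measured genes were higher, so the count is near the background. Spen, a corepressor that acts with RBPJ in the absence of Notch activity, had 17 counts in Sftpc wells and 12 in other wells, a ratio of 2.97 (1.34 to 6.82). Furin, the protease that cleaves the receptor precursor, had 20 counts in Sftpc wells and 16 in other wells, a ratio of 2.62 (1.29 to 5.42). Of the Sftpc-well counts, 11 of Spen and 16 of Furin lay in the third set. With the levels of other wells matched by set, the ratios were 2.01 for Spen and 2.13 for Furin.

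For Scgb3a1 over other wells, 3 of 12 pathway genes were higher and 1 lower, against 8.13% higher and 9.24% lower over all measured genes. The 1 lower gene is near the background. Rbpj, the DNA-binding partner of the receptor domain, had 29 counts in Scgb3a1 wells and 11 in other wells, a ratio of 2.60 (1.26 to 5.76). Adam10, the protease of the first cleavage after ligand binding, had 35 counts in Scgb3a1 wells and 14 in other wells, a ratio of 2.46 (1.29 to 4.95). Furin had 37 counts in Scgb3a1 wells and 16 in other wells, a ratio of 2.28 (1.24 to 4.38). Ep300, a histone acetyltransferase and coactivator, had 12 counts in Scgb3a1 wells and 28 in other wells, a ratio of 0.422 (0.195 to 0.857). These 4 genes were past 2-fold under all 3 scalings and without the highest well of each class. With levels matched by set the ratios were 2.63 for Rbpj, 2.55 for Adam10, 2.44 for Furin and 0.428 for Ep300. Rbpj, Adam10 and Furin were thus higher in the same class of wells in which Notch1 and Hes1 were lower.

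For Sftpc over Scgb3a1 wells, 2 of 10 pathway genes were higher, where 19.7% of all measured genes were, again near the background. Spen had 17 counts in Sftpc wells and 10 in Scgb3a1 wells, a ratio of 3.62 (1.57 to 8.86). Of its Sftpc-well counts 11 lay in the third set, where Scgb3a1 wells held 0, and with levels matched by set the ratio was 8.82. Ep300 had 14 counts in Sftpc wells and 12 in Scgb3a1 wells, a ratio of 2.49 (1.07 to 5.89), and its log2 ratio of 1.31 became 0.94 with TMM factors, below 2-fold. Matched by set, the Ep300 ratio was 1.77.

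The 2 targets and the receptors were next compared by the wells that held them together. Hes1 and Nrarp were both found in 28 of the 227 kept wells, where the product of their shares is 31.7 wells. In Scgb3a1 wells both were found in 6 wells, against a product of 10.3. Jag1 and Notch2 were both found in 20 wells, against 13.9, Notch1 and Hes1 in 36, against 28.5, and Notch1 and Nrarp in 19, against 13.8. The remaining pairs went both ways. Above the product were Notch1 with Notch2 (16, against 14.5) and Notch3 (6, 5.37). Notch3 with Notch2 (9, 6.28) and Nrarp (9, 5.98) were too. Below it were Jag1 with Notch1 (10, 11.9), Notch3 (5, 5.17), Hes1 (26, 27.4) and Nrarp (13, 13.3). So were Notch2 with Hes1 (32, 33.3) and Nrarp (15, 16.1), and Notch3 with Hes1 (11, 12.4). The products over kept wells pool classes in which the shares differ. Jag1 with Notch2, Notch1 with Hes1 and Notch1 with Nrarp were found in 12, 25 and 16 other wells, against 7.67, 22.6 and 13.2. In Scgb3a1 wells these pairs were found in 7, 5 and 2, against 5.51, 4.91 and 3.42. In Sftpc wells they were found in 1, 6 and 1, against 1.40, 3.44 and 0.222. Notch2 and Nrarp were both found in 3 Scgb3a1 wells, against 7.46. All pairs share the depth of the wells, and the part of depth and of class in these counts was not tested. Hes1 was the member with at least 100 counts, and the genes most like it over 227 wells were Sec14l3 (Pearson r 0.240), Cbr2 (0.204) and Ptma (0.202), out of 552 genes with at least 200 counts. These correlations are weak, share well depth and class, and are given as a description.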

How the data were processed

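Libraries were made in each well from cell lysate, with an oligo-dT primer that carries a molecular barcode, per the labels' protocols. The deposited values are whole-number counts per gene and well made by the authors, not normalised. The submitters' processing notes name STAR, without a version, and mm10. Not given in the sources used here are the counting tool, its annotation, any use of strand and the collapsing of barcodes. If copies made by PCR were counted, the intervals are too narrow.

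The limit on totals and the classes are given with the results. Levels are summed counts over summed totals, in CPM, with exact Poisson intervals. Shares have Clopper-Pearson intervals, ratios exact conditional binomial intervals and ratios of ratios conditional odds-ratio intervals, all at 95%. A class at 0 was given 3 counts, which is also the limit that a 0 allows. Thinning drew 3151 counts per well without replacement (the 10th percentile of totals). No doublet caller was run. Python 3.11.15, numpy 2.4.6, scipy 1.17.1, pandas 2.3.3, and R 4.3.3 with edgeR 4.0.16 for TMM factors were used. The ratio step was tested on simulated class sums with known folds and Poisson error only. The simulation had no spread between wells, so it cannot show how the intervals hold where wells vary more.

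The members and lists were chosen with earlier results of these data known. The named genes were all 6 members, pathway genes past 2-fold, the 3 genes most correlated with each member of at least 100 counts, and the class genes. Alternatives varied the limits, scaling, level, depth, column sets, leading wells and count minimum. A pathway gene past 2-fold in the comparison of Sftpc with Scgb3a1 wells is not reported here.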

Additional observations from a re-analysis of the deposited data

Results flagged for a closer look

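Member counts were also present in the 59 wells removed for low totals, while the 2 control wells held none. No main comparison used the removed wells, but the alternative with a limit at the control total took in those above 234 counts. Hes1 had 28 counts in 18 of the 59 removed wells, 460 CPM (306 to 665). Jag1 had 6 counts and Notch1 had 5. Notch2 had 2, Notch3 1 and Nrarp 0. The removed wells held 60845 counts in all, and the control wells 275, too few to show members at these levels.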

How the results depend on the processing

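Over 18 alternatives, 273 of 290 recomputed member ratios stayed within the counting interval first obtained, and 0 called ratios changed sign. Nrarp was below other wells in Sftpc wells in all 16 alternatives that gave a value (log2 -4.72 to -1.78), as was Notch1 in Scgb3a1 wells in all 17 (-3.35 to -1.41). The Nrarp value of -1.78 came with totals above 20 times the control and lay outside the counting interval. The same setting gave -1.10 for Nrarp in Sftpc over Scgb3a1 wells, also outside. Hes1 was below other wells in all 18 in both classes, at -1.46 to -0.61 and -2.24 to -0.51. For Sftpc over other wells, 3 members past 2-fold became 2 with a limit at the control total, at a class limit of 0.5% and without the third set. Within the first set of columns they also became 2, Notch1 (-1.67) and Hes1 (-1.03), the 2 members measured there. The count was 4 under TMM, without 5 abundant genes, matched by set and with no minimum. It was 1 at a class limit of 5%, 1 within the second set of columns and 1 within the third. The losses that lowered the count were Notch2 at 0.5%, at the control total and at 5%, and Notch1 at 5%, without the third set and within the second. Notch2 also fell below 2-fold at 20 times the control (-0.85), with thinned wells (-0.88) and without the second set (-0.98). The count stayed at 3 there because another member passed. This was Jag1 at 20 times the control (-1.98), and Hes1 with thinned wells (-1.19) and without the second set (-1.10). The gain under both scalings and matching was Hes1. For Scgb3a1 over other wells, 1 became 2 at a class limit of 2%, 2 with the mean of well CPM, 2 with thinned wells, 2 without the first set, 3 without the second set and 2 within the second. For Sftpc over Scgb3a1 wells, 1 became 2 with a limit of 20 times the control, 2 without 5 abundant genes, 2 with TMM factors, 2 with thinned wells, 2 without the leading well of each class, 2 without the third set, 2 with no count minimum, 3 with levels matched by set (2 lower and Jag1 higher, log2 1.45), 0 without the first set, 0 within the second, 0 within the third and 0 at a minimum of 50 counts. Within sets and at that minimum, fewer members were measured. Without the first set, Nrarp was at a log2 ratio of -3.58 for Sftpc over Scgb3a1 wells, on 17 counts, too few to be measured. Matching by set was chosen after seeing the data. At 20 times the control, 10 Sftpc wells were left. The cause of the other shifts was not tested. No paired analysis was possible because the wells are 1 sample, numbers name wells only and no result comes from a test.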
